A study of Mus musculus with 31 samples.

Results

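The livers of 5 mice given *Upf3b*-GalNAc-ASO at 10 mg/kg were compared with those of 11 mice given Dulbecco's phosphate-buffered saline (DPBS), the vehicle, out of 31 mice of the series analysed here. The members are set by treatment and dose alone, from the sample labels, though the comparison was chosen with earlier results of these data known. Each liver was sequenced once, from the 3′ ends of its transcripts, and has 1 value for each gene symbol. Of 31172 symbols, the 9032 with a median of at least 5 TPM (transcripts scaled to the same total in every mouse) in either group were tested.

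All mice were adults of 8 to 14 weeks of the strain hFIX-R29X. They carry a human factor IX minigene with a nonsense mutation, driven by the human transthyretin promoter, and lack the mouse *F9* gene. The treated group held 2 females and 3 males, and the DPBS group held 6 females and 5 males. All were injected under the skin 6 times, every 5 days, and the liver was collected 48 h following the final injection. The dose entry of the labels calls the dosing weekly, while their protocol and the study's methods give the interval of 5 days. The study's methods name a TruSeq library kit and the labels a 3′-end kit (QuantSeq). Which DPBS-treated mice were handled together with the treated mice is not given in the sources used here, so handling and treatment cannot be told apart. The human minigene was not part of the mouse reference, so its mRNA was not measured.

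Nonsense-mediated mRNA decay (NMD) degrades mRNAs whose translation stops early. UPF3B is an NMD factor that links UPF2 to the exon junction complex, the set of proteins left on mRNA upstream of each splice junction, and its paralog UPF3A can take its place in part. An antisense oligonucleotide (ASO) of the gapmer type pairs with an RNA through its full length, and RNase H cuts the RNA opposite the DNA gap in the middle of the ASO. The GalNAc sugar cluster is bound by the asialoglycoprotein receptor of hepatocytes, which brings the ASO into these cells.

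The ASO sequences are shown because the RNA cut by the treatment is set by pairing with them. Both ASOs have 16 bases with phosphorothioate links, and the capitals mark the DNA gap of 10 bases between wings of 3 bases made of constrained ethyl nucleotides.
*Upf3b*-GalNAc-ASO: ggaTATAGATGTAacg
Control-GalNAc-ASO: ggcCAATACGCCGtca
The complement of the *Upf3b*-GalNAc-ASO, cgttacatctatatcc, lies in the 3′ UTR of *Upf3b*, in exon 10 of 10, on the minus strand of the X chromosome from 37091973 to 37091988 (GRCm38, GENCODE M21). It was found without a mismatch in the annotated transcripts of 1 gene, *Upf3b*. With at most 2 mismatches it was found in 13 genes, and the complement of the Control-GalNAc-ASO in 4. Only spliced transcripts were searched, so sites in introns were not examined.

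*Upf3b* mRNA, the target, checks the labels. It was at 5.97, 20.7, 53.7, 3.95 and 23.3 TPM in treated mice 1 to 5 and at 33.8, 104 and 136 TPM (lowest, median and highest) in DPBS-treated mice. Treated mouse 3 lay within the range of the DPBS-treated mice, and the other 4 lay below all of them. It was 21.5 ± 20.0 TPM in treated (SD, n = 5) and 97.3 ± 33.2 TPM in DPBS-treated mice (SD, n = 11), so the mean in treated mice was 22.1% of that in DPBS-treated mice. In limma with sex as a covariate the log2 fold change was -2.57 (SE 0.45, adjusted p = 0.00455), where SE is the standard error and p is adjusted over all genes tested. Over all 4368 ways to choose 5 of these 16 mice, the difference of the means of log2(TPM + 1) gave p = 0.000687 (exact permutation test, two-sided). With females alone (2 treated, of which 1 was mouse 3) the log2 fold change was -1.92 with an adjusted p of 0.333. Over all alternatives the adjusted p ran from 4.48e-06 to 0.333. The difference between the sexes (males minus females) was -1.18 and was not called (limma, unadjusted p = 0.193, adjusted p = 0.580). Mice given Control-GalNAc-ASO had *Upf3b* at 57.8 ± 22.1 TPM at 15 mg/kg (SD, n = 4) and at 111 ± 21.8 TPM at 20 mg/kg (SD, n = 6). At 15 mg/kg its log2 fold change from DPBS was -0.75 (limma, unadjusted p = 0.0426, adjusted p = 0.691).

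Depth differed between mice. The most common value above 0 in a mouse was taken as the worth of 1 read, and it gave 1012529 to 4567229 reads in treated and 1172368 to 6676042 reads in DPBS-treated mice. A level of 3 reads was worth 0.651 to 2.94 TPM in treated and 0.445 to 2.53 TPM in DPBS-treated mice, a floor that reflects counting alone, because copies made by PCR cannot be told from separate molecules here. Treated mouse 3, a female, was the shallowest of the 16. Its median correlation across genes with the rest of its group was 0.677, while the other 4 treated mice had 0.826 to 0.853. DPBS-treated mice 6 and 7 came next in depth, with median correlations of 0.724 and 0.777, and all other mice had at least 2529149 reads. Without these 3 shallowest mice, a choice made after seeing the data, 26 genes were lowered and 15 raised, and 29 of the 34 genes described next were called again, the exceptions being *Oat*, *Hes6*, *Ifi44*, *Car1* and *Gm43302*. Each mouse is a separate animal measured once.

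Livers of treated mice had 24 genes lowered and 10 raised with an adjusted p under 0.05 (limma, Benjamini-Hochberg over the genes tested), which is 0.266% and 0.111% of the genes tested and 0.376% together. The falls included lipid and drug handling genes of hepatocytes and very long genes, and the rises included interferon-induced genes, the glutathione S-transferase *Gsta1* and the snoRNA host gene *Zfas1*. When genes changed 2-fold or more were counted if their unadjusted p was 0.01 or lower, 102 were lowered (1.13%) and 68 raised (0.753%), 1.88% together. Of all genes tested, 91.6% differed by less than 2-fold, and their median log2 fold change was 0.03. Fold changes are of log2(TPM + 1), which understates those of genes with few TPM. Fewer cells of a type and less RNA per cell cannot be told apart in whole liver. Treated and DPBS-treated mice did not overlap at all for 14 of the 24 lowered and 2 of the 10 raised genes, against 26 of all genes tested (0.288%).

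The genes lowered after *Upf3b*-GalNAc-ASO treatment are described first, by what they do. *Lipc* (chromosome 9, 70798128 to 70952226, GRCm38) encodes hepatic lipase, which splits triglycerides and phospholipids of lipoproteins in the liver sinusoids. It was at 0, 0.746, 0.980, 0 and 0.258 TPM in treated mice 1 to 5 and at 27.0, 63.5 and 114 TPM (lowest, median and highest) in DPBS-treated mice. Every treated mouse lay far below every DPBS-treated mouse. The 5 treated mice together held 5 reads of *Lipc*, with 2 mice at 0, and the 11 DPBS-treated mice 2485. Levels below 3 reads in a mouse cannot be resolved any further here. The log2 fold change was -5.46 (SE 0.36, adjusted p = 2.15e-09). After Control-GalNAc-ASO treatment (15 mg/kg) *Lipc* averaged 80.9 ± 21.9 TPM (SD, n = 4), a log2 fold change of 0.40 from DPBS (adjusted p = 0.776). It is 1 of 27 listed lipoprotein genes, of which 26 were tested, 1 was lowered and 0 were raised, and the median log2 fold change of the list was -0.19.

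*Rdh16* encodes a retinol dehydrogenase. It was at 11.1, 12.4, 16.7, 18.8 and 12.3 TPM in treated mice 1 to 5 and at 65.4, 116 and 269 TPM (lowest, median and highest) in DPBS-treated mice, so the groups were far apart. Its log2 fold change was -2.89 (SE 0.31, adjusted p = 1.11e-05). Of 18 retinol metabolism genes tested, *Rdh16* was the 1 lowered gene, 0 were raised and the median was -0.29, or 0.05 without the 3 shallowest mice. *Slc47a1* encodes the transporter MATE1, which exports organic cations into bile. Every treated mouse was at or below 17.1 TPM and every DPBS-treated mouse was at or above 42.0 TPM. Its log2 fold change of -2.84 (SE 0.40, adjusted p = 0.000364) was the 1 call among 12 drug and organic ion transporters tested, of which 2 were higher and 10 lower than with DPBS. *Acot1*, an acyl-CoA thioesterase of the cytosol and a PPAR alpha target, was 6.95 ± 4.36 TPM in treated (SD, n = 5) and 74.3 ± 44.9 TPM in DPBS-treated mice (SD, n = 11), with a log2 fold change of -3.37 (SE 0.53, adjusted p = 0.00140). The groups did not overlap. *Acot1* has close paralogs that can share reads, so its value is uncertain, and the list of fatty acid oxidation and PPAR alpha targets held 1 call in 28 tested genes. *Thrsp*, a thyroid hormone responsive regulator of fat synthesis, was at 94.8, 104, 129, 106 and 402 TPM in treated mice 1 to 5 and at 353, 480.5 and 1308 TPM in DPBS-treated mice. Treated mouse 5 lay within the DPBS range and the other 4 below it. *Thrsp* (log2 fold change -1.87, SE 0.33, adjusted p = 0.00456) was the 1 called of 30 genes of cholesterol and fatty acid synthesis, whose median was -0.43 with 25 of 30 lower.

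*Serpina1e*, an α1-antitrypsin family member with higher levels in males, had 8.42 and 1.05 TPM in the 2 treated females and 15.6 to 47.9 TPM in the 3 treated males. DPBS-treated females had 16.6 to 96.0 TPM and DPBS-treated males 744 to 2149 TPM. Each treated mouse lay below all DPBS-treated mice of its sex. The log2 fold change was -4.27 (SE 0.47, adjusted p = 1.11e-05). Reads can be shared among near-identical *Serpina1* genes, so the value is uncertain. The other 4 paralogs were all lower as well, with log2 fold changes from -0.98 (*Serpina1a*, adjusted p = 0.0628) to -0.67 (*Serpina1d*), and all 5 paralogs had an unadjusted p under 0.05, but of these only *Serpina1e* passed after adjustment.

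Further called falls were in enzymes and transporters of the liver. Of the genes described here and next, *Csad*, *Maob*, *Dio1*, *Hes6*, *Gphn*, *Agmo*, *Adk* and *Myo6* were named after their values were seen. *Csad*, the decarboxylase of taurine synthesis, was 62.3 ± 20.9 TPM in treated (SD, n = 5) and 253 ± 89.0 TPM in DPBS-treated mice (SD, n = 11), which did not overlap, and its log2 fold change was -2.09 (SE 0.28, adjusted p = 0.000157). *Usp2*, a deubiquitinase, was 7.52 ± 5.06 TPM in treated (SD, n = 5) and 49.3 ± 14.2 TPM in DPBS-treated mice (SD, n = 11), again with no overlap and a log2 fold change of -2.89 (SE 0.38, adjusted p = 0.000155). *Maob*, monoamine oxidase B, was at or below 20.2 TPM in treated and at or above 39.2 TPM in DPBS-treated mice (log2 fold change -2.40, SE 0.34, adjusted p = 0.000332). *Dio1*, the deiodinase that activates thyroxine, had a log2 fold change of -2.07 (adjusted p = 0.0236). *Gstt3*, a theta-class glutathione S-transferase, changed by -1.81 (adjusted p = 0.00231). *Oat*, the ornithine aminotransferase of pericentral hepatocytes, was 59.0 ± 20.7 TPM in treated (SD, n = 5) and 199.7 ± 105 TPM in DPBS-treated mice (SD, n = 11), with a log2 fold change of -1.65 (SE 0.35, adjusted p = 0.0258). It was the 1 call among 13 pericentral genes tested, of which 10 were lower. *Hes6*, a transcriptional regulator of the HES family, had a log2 fold change of -1.25 (adjusted p = 0.0300), with each treated mouse below all DPBS-treated mice of its sex.

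**Figure D1:**
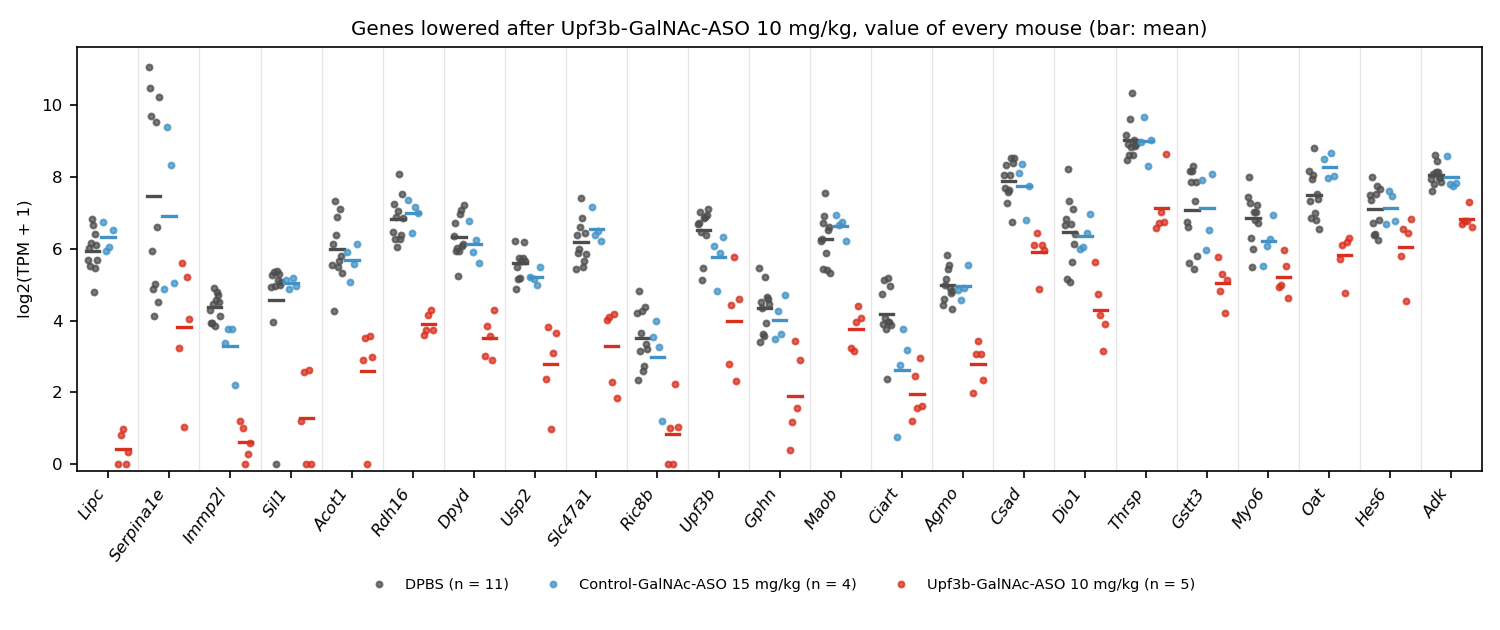
Log2(TPM + 1) of every DPBS-treated (grey, n = 11), Control-GalNAc-ASO treated (blue, 15 mg/kg, n = 4) and *Upf3b*-GalNAc-ASO treated mouse (red, 10 mg/kg, n = 5) for 23 of the 24 lowered genes, with bars at the group means. Red points lie below all grey points for 13 of the genes drawn.

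Many of the lowered genes are very long, which the choice of members did not use. Of the 24 lowered genes, 11 span more than 100 kb in GENCODE M21 (45.8%), against 1 of the 10 raised genes and 12.1% of all tested genes with a length (9004 of 9032 matched by symbol). The median gene length was 40.2 kb for lowered, 16.4 kb for raised and 24.1 kb for all tested genes. The longest annotated transcript of each gene was not longer for the lowered genes, with medians of 2482 bases for lowered and 3411 bases for all tested genes. *Immp2l*, a subunit of the inner membrane peptidase of mitochondria, spans 931 kb on chromosome 12. It was at 1.30, 0.995, 0, 0.217 and 0.515 TPM in treated mice 1 to 5 and at 13.4, 21.0 and 29.3 TPM (lowest, median and highest) in DPBS-treated mice, which is 11 and 807 reads in all. All treated mice lay far below all DPBS-treated mice (log2 fold change -3.73, SE 0.39, adjusted p = 1.09e-05). *Dpyd*, which starts the breakdown of uracil and thymine, spans 871 kb on chromosome 3 and was at 7.14, 13.4, 10.8, 6.51 and 18.6 TPM against 37.1, 69.9 and 148 TPM. Its groups were also apart (log2 fold change -2.89, SE 0.32, adjusted p = 1.11e-05).

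Other called falls in long genes were smaller or less steady. *Gphn*, gephyrin, which works in molybdenum cofactor synthesis, spans 458 kb and was 3.95 ± 4.03 TPM in treated (SD, n = 5) and 21.4 ± 10.6 TPM in DPBS-treated mice (SD, n = 11), with a log2 fold change of -2.45 (SE 0.50, adjusted p = 0.0211). *Agmo*, the monooxygenase that cleaves ether lipids (341 kb), was at or below 9.80 TPM in treated and at or above 18.9 TPM in DPBS-treated mice (log2 fold change -2.14, SE 0.34, adjusted p = 0.00195). The groups did not overlap. *Adk*, adenosine kinase (396 kb), had the smallest change of the 34 called genes (log2 fold change -1.21, SE 0.22, adjusted p = 0.00717), and its groups still did not overlap, at 96.9 to 156 TPM against 194 to 393 TPM. *Sil1* (233 kb), the exchange factor of the chaperone BiP in the endoplasmic reticulum, was at 1.30, 4.98, 0, 5.21 and 0 TPM, and 10 of 11 DPBS-treated mice were above all of these. The remaining DPBS-treated mouse was listed at 0. Its log2 fold change was -3.40 (SE 0.70, adjusted p = 0.0234), and it was the 1 called of 24 genes of protein folding in the endoplasmic reticulum. *Ric8b* (101 kb), a chaperone of G protein subunits, was at 0, 0.995, 0, 3.69 and 1.03 TPM in treated mice 1 to 5 and at 4.06, 9.23 and 27.3 TPM in DPBS-treated mice (log2 fold change -2.72, SE 0.52, adjusted p = 0.0118). These are 25 and 490 reads in all. *Myo6*, myosin VI (147 kb), was 38.1 ± 15.2 TPM in treated (SD, n = 5) and 127 ± 58.7 TPM in DPBS-treated mice (SD, n = 11), with a log2 fold change of -1.70 (SE 0.34, adjusted p = 0.0184).

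Over all tested genes, at the 2-fold threshold with an unadjusted p up to 0.01, 15 of 180 genes over 300 kb were lowered (8.33%) and 1 was raised. Of 2229 genes of up to 10 kb, 24 were lowered (1.08%) and 18 raised. Between 10 and 30 kb 0.943%, between 30 and 100 kb 0.736% and between 100 and 300 kb 1.65% were lowered. The median log2 fold change of the genes over 300 kb was -0.05. In Control-GalNAc-ASO treated mice (15 mg/kg), compared with the same DPBS-treated mice, 2 of 173 genes over 300 kb were lowered at this threshold (1.16%). In the shorter length ranges, from shortest to longest, 0.628%, 0.444%, 0.186% and 0.868% were lowered there. The share over 300 kb rests on 2 genes, beside 8 of 922 genes between 100 and 300 kb, so these shares are not ranked. Outside the calls already named, the 15 genes included *Cpq*, a plasma carboxypeptidase (511 kb, log2 fold change -2.89, adjusted p = 0.0552), and *Bre*, a subunit of deubiquitinating complexes (387 kb, -2.15, adjusted p = 0.0628). Both were chosen after their values were seen.

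**Figure D2:**
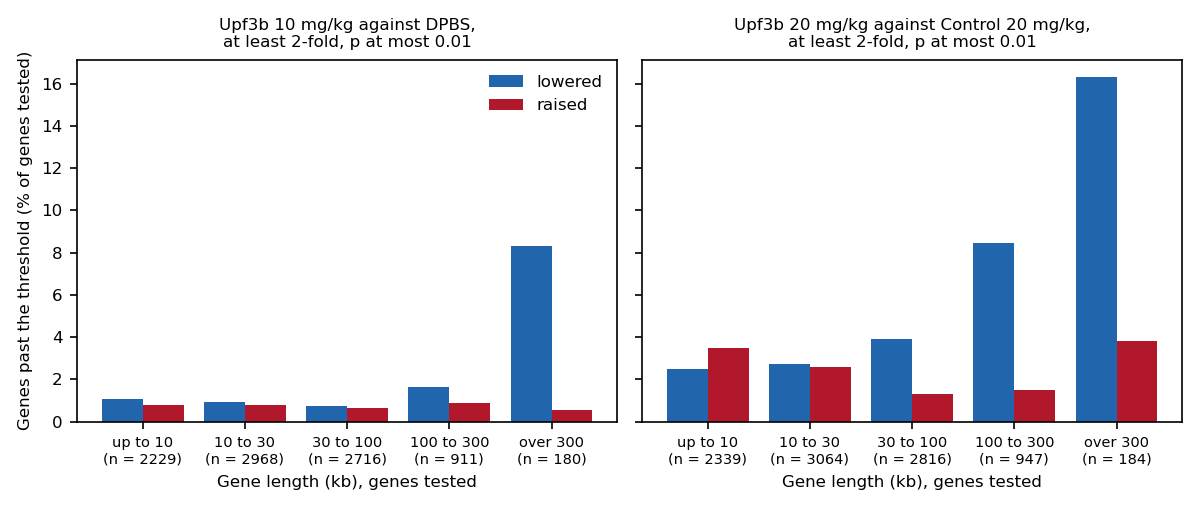
Share of tested genes (%) lowered (blue) or raised (red) 2-fold or more with an unadjusted p up to 0.01, by gene length in kb, at 10 mg/kg against DPBS (left) and, in other mice, at 20 mg/kg against Control-GalNAc-ASO (right). The share of lowered genes was highest over 300 kb in both, at 8.33% of 180 genes and 16.3% of 184 genes.

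Near matches to the ASO site were also looked for in annotated transcripts, as a description without a test. Of the tested genes, 7 held the site with at most 2 mismatches, *Upf3b* included, and their median log2 fold change was 0.00. *Hsd3b3*, a steroid dehydrogenase of the *Hsd3b* family, was the 1 other lowered gene among them at the 2-fold threshold, and was singled out after its values were seen. Its site is set beside that of *Upf3b*, with the 2 mismatches in capitals.
*Upf3b* site: cgttacatctatatcc
*Hsd3b3* site: cAttGcatctatatcc
*Hsd3b3* was 38.8 ± 21.5 TPM in treated (SD, n = 5) and 90.9 ± 44.6 TPM in DPBS-treated mice (SD, n = 11), a log2 fold change of -1.34 (adjusted p = 0.119). Without the 3 shallowest mice it was -1.81 with an adjusted p of 0.00198. In the mice given 20 mg/kg, it was -2.29 against Control-GalNAc-ASO (adjusted p = 0.00295). Reads can be shared within the *Hsd3b* family, so the value is uncertain.

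The raised genes were led by *Gsta1* (chromosome 9, 78230656 to 78242684), an alpha-class glutathione S-transferase that conjugates electrophiles. It was at 33.4, 32.8, 3.35, 107 and 70.2 TPM in treated mice 1 to 5 and at 0, 0.757 and 4.64 TPM (lowest, median and highest) in DPBS-treated mice. Treated mouse 3 lay within the DPBS range, though above every DPBS-treated female, and the other 4 lay far above it. The log2 fold change was 3.77 (SE 0.59, adjusted p = 0.00140). After Control-GalNAc-ASO treatment *Gsta1* averaged 5.48 ± 3.03 TPM (SD, n = 4), a log2 fold change of 1.41 from DPBS (adjusted p = 0.691). *Gsta2*, a near-identical gene that can share its reads, was 92.7 ± 66.6 TPM against 28.4 ± 15.2 TPM (log2 fold change 1.53, adjusted p = 0.158), and it reached an adjusted p of 0.0213 without the 3 shallowest mice. Of 20 glutathione S-transferases tested, 1 was raised and 1 (*Gstt3*) lowered. Of 17 NRF2 targets tested, 0 were called (limma, with 3 at an unadjusted p under 0.05), and their median was 0.05.

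*Zfas1* (chromosome 2, 167062934 to 167065862) is a non-coding host gene of snoRNAs whose spliced RNA is a known NMD substrate. It was at 221, 114, 97.5, 312 and 241 TPM in treated mice 1 to 5 and at 24.9, 49.4 and 94.8 TPM in DPBS-treated mice, so every treated mouse was above every DPBS-treated mouse. The log2 fold change was 1.98 (SE 0.33, adjusted p = 0.00231), and after Control-GalNAc-ASO treatment it was -0.21 (adjusted p = 0.896). Of 19 listed snoRNA host genes 16 were not analysed here, and the 3 analysed were all tested. The other 2 were *Snhg11* (1.05, adjusted p = 0.573) and *Rabggtb* (-0.42, adjusted p = 0.766).

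No other list of NMD substrates or factors held a raised gene (limma, adjusted p under 0.05). Of 5 tested stress genes known as NMD substrates, 0 were called. The 1 with an unadjusted p under 0.05 was *Cdkn1a*, a cell cycle inhibitor and p53 target, at 1.99 (unadjusted p = 0.00665, adjusted p = 0.351). Of 24 splicing factor and ribosomal genes with poison exons, 0 were called and 0 had an unadjusted p under 0.05, and their median was 0.03 with 13 of 24 higher. The values count all transcripts of a gene together, so a shift between its transcripts would not show. At an unadjusted p under 0.05, 747 genes of all tested had passed, where 34 passed after adjustment.

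Of the 16 listed NMD factors, 13 were tested, *Upf3b* was lowered and 0 were raised. *Upf2*, the partner of UPF3B, was at 163, 118, 681, 101 and 143 TPM in treated mice 1 to 5 and at 14.8, 79.0 and 145 TPM in DPBS-treated mice. Mouse 3 was far above the others, of which 1 more lay above the DPBS range. The log2 fold change of 1.47 had an unadjusted p of 0.00707 and an adjusted p of 0.351. It was 0.85 without treated mouse 3 and 0.79 without the 3 shallowest mice, and 2.74 in females and 0.46 in males. One of the 2 treated females was mouse 3, and the difference between the sexes (-2.28, males minus females) was not called (limma, unadjusted p = 0.0170, adjusted p = 0.359). *Upf1*, the central helicase, had a log2 fold change of 0.70 (SE 0.53, adjusted p = 0.740), and *Upf3a*, the paralog of *Upf3b*, of 0.53 (SE 0.71, adjusted p = 0.852), which turned to -0.33 without the 3 shallowest mice. The SMG factors, which phosphorylate UPF1 or cut and shorten its target mRNAs, ranged from -0.53 (*Smg6*) to 0.66 (*Smg1*), with *Smg9* at 0.61 and *Smg5* at 0.29. *Nbas* was at -0.82 and *Pnrc2* at 0.76, and the release factor genes *Etf1* and *Gspt1* were at 0.34 and 0.30. The adjusted p-values of the factors named here, other than *Upf2* and *Upf3b*, were between 0.636 and 0.925. Of 9 tested genes of the exon junction complex and its cofactors, 0 were called and 0 had an unadjusted p under 0.05, and the median was 0.16. *Gapdh* had a log2 fold change of -0.11 (adjusted p = 0.934). The mouse gene *F9*, which these mice are described as lacking, was at 0, 3.23, 0.980, 4.56 and 2.32 TPM in treated mice 1 to 5 and at 0 to 2.58 TPM in DPBS-treated mice, below the minimum for testing.

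Of 28 tested interferon-stimulated genes 26 were higher in treated mice, with a median log2 fold change of 0.88 against 0.03 for all genes, and 3 of them were raised with an adjusted p under 0.05. *Isg15*, a ubiquitin-like protein that is attached to other proteins, was at 642, 449.5, 1078, 270.5 and 558 TPM in treated mice 1 to 5 and at 126, 199 and 291 TPM (lowest, median and highest) in DPBS-treated mice. Treated mouse 4 lay within the DPBS range and the other 4 above it (log2 fold change 1.54, SE 0.27, adjusted p = 0.00456). *Rsad2*, viperin, which blocks virus growth, was at 115, 197, 97.0, 91.8 and 120.4 TPM against 0.972, 24.3 and 47.3 TPM. All treated mice were above all DPBS-treated mice (log2 fold change 2.49, SE 0.55, adjusted p = 0.0447). *Ifi44* was at 27.3, 12.9, 103, 31.5 and 22.7 TPM, with mouse 3 far above the rest, against 0, 5.81 and 14.4 TPM (log2 fold change 2.69, SE 0.55, adjusted p = 0.0226). In Control-GalNAc-ASO treated mice (15 mg/kg) the 3 genes differed from DPBS by -0.54, 0.31 and -0.54, with adjusted p-values from 0.691 to 0.930. In the 6 mice given Control-GalNAc-ASO at 20 mg/kg, *Isg15* was at 104 to 635 TPM, *Rsad2* at 13.1 to 209 TPM and *Ifi44* at 0.406 to 14.7 TPM. These ranges overlap those of the treated mice for all 3 genes, and that group was not compared with DPBS.

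At the 2-fold threshold 6 of the 28 were raised and 0 lowered, the further 3 being *Ifit1* (1.68), *Irf7* (2.05) and *Gbp3* (2.38). Without the 3 shallowest mice, 7 of 27 passed this threshold, 2 were called and the median was 0.75. Summed levels of 20 macrophage markers overlapped between the groups (348 to 1025 TPM in treated and 437 to 1186 TPM in DPBS-treated mice), and 0 of their 16 tested members were called. Those of 12 lymphocyte markers were 5.98 to 55.8 TPM and 2.51 to 38.4 TPM. Treated mouse 3 had the highest lymphocyte sum. The part of these cells in the interferon values was not tested.

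The promoters of these genes are shown where they hold the interferon-stimulated response element, searched for as GAAA and GAAA 2 bases apart on either strand (TTTC and TTTC on the other strand) within 250 bases before and 50 after the start (RefSeq, GRCm38.p6). Capitals mark the matches, the strand is that of the gene, and the start site lies to the right.
*Isg15*, chr4:156200877-156200906, minus strand, match starts 78 bases upstream: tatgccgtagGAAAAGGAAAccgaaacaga
*Isg15*, chr4:156200865-156200894, minus strand, match starts 66 bases upstream: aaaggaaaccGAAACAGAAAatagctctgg
*Rsad2*, chr12:26456553-26456582, minus strand, match starts 120 bases upstream: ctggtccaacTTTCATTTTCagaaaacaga
The window of *Ifi44* held no match. Of the 28 tested interferon-stimulated genes 23 have a promoter in the table, and 12 of them (52.2%) held a match, against 3.99% of 27025 genes with a promoter listed. A match describes letters only and shows no binding.

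The remaining called rises belong to no list in common. *Adora1*, the adenosine A1 receptor, was at 181, 462, 355, 367 and 317 TPM in treated mice 1 to 5 and at 33.4, 99.2 and 232 TPM in DPBS-treated mice. Treated mouse 1 lay within the DPBS range and the other 4 above it (log2 fold change 1.68, SE 0.32, adjusted p = 0.00952). *Gm43302*, a predicted protein-coding gene, was at 26.2, 0, 37.3, 5.08 and 7.73 TPM, while 10 of the 11 DPBS-treated mice were at 0, and its groups overlapped (log2 fold change 3.15, SE 0.63, adjusted p = 0.0184). *Car1*, a carbonic anhydrase abundant in red cells, was 13.1 ± 6.19 TPM in treated (SD, n = 5) and 1.69 ± 2.58 TPM in DPBS-treated mice (SD, n = 11), with a log2 fold change of 2.84 (SE 0.61, adjusted p = 0.0356). Summed levels of 7 erythroid markers overlapped, at 993 to 1568 TPM in treated and 707 to 1997 TPM in DPBS-treated mice. *Ank3*, ankyrin G, and *Tstd1*, a thiosulfate sulfurtransferase, had the smallest called rises, of 1.32 (adjusted p = 0.0437) and 1.28 (adjusted p = 0.0497).

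**Figure D3:**
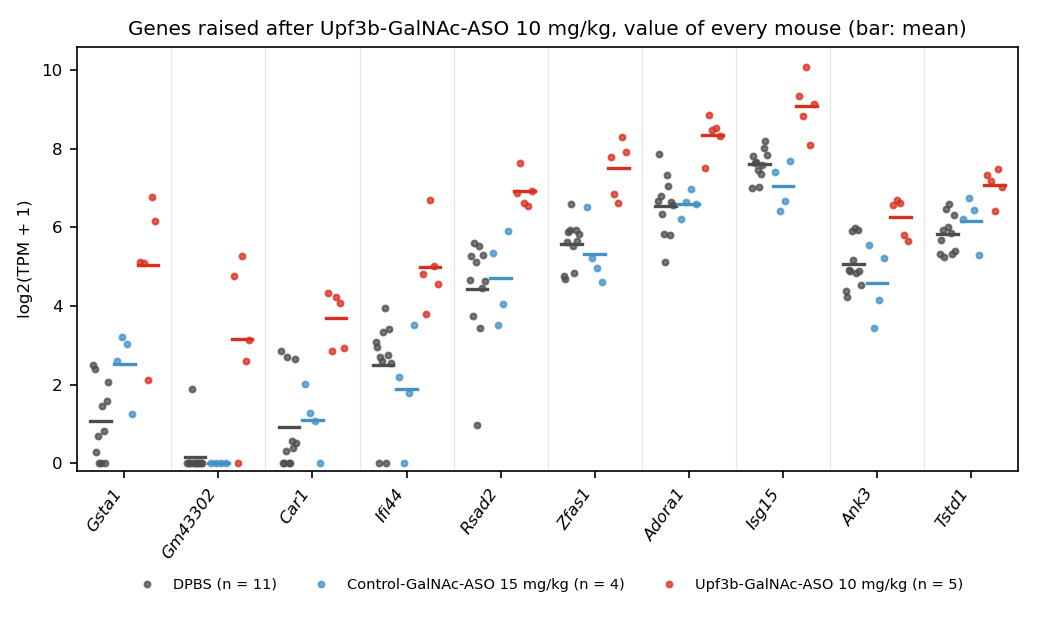
Log2(TPM + 1) of every DPBS-treated (grey, n = 11), Control-GalNAc-ASO treated (blue, 15 mg/kg, n = 4) and *Upf3b*-GalNAc-ASO treated mouse (red, 10 mg/kg, n = 5) for the 10 raised genes, with bars at the group means. All red points lie above all grey points for *Rsad2* and *Zfas1*, and 1 or 2 red points reach into the grey range for each of the others.

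Leaving out each of the 16 mice in turn, 20 of the 34 called genes kept an adjusted p under 0.05 in all 16 fits (limma), *Lipc*, *Rdh16*, *Immp2l*, *Dpyd*, *Upf3b*, *Gsta1*, *Zfas1*, *Adora1* and *Isg15* among them. The other 14 kept their sign. *Sil1* lost its call without DPBS-treated mouse 1 or treated mouse 1, 3 or 5 (adjusted p up to 0.149), and *Gphn* without DPBS-treated mouse 1 or treated mouse 1, 2 or 4 (up to 0.128). *Ric8b* lost it without treated mouse 1 or 3 (up to 0.0651), *Myo6* without treated mouse 1, 2 or 5 (up to 0.0885), and *Oat* without DPBS-treated mouse 1 or treated mouse 1 or 3 (up to 0.141). *Ciart* lost it without DPBS-treated mouse 1 or 3 or treated mouse 1, 3 or 5 (up to 0.0884), and *Dio1* without DPBS-treated mouse 1, 2 or 11 or treated mouse 3, 4 or 5 (up to 0.141). *Ifi44* lost it without treated mouse 3, 4 or 5 (up to 0.141), and *Gm43302* without treated mouse 1, 3 or 5 (up to 0.141). *Hes6*, *Rsad2*, *Car1*, *Tstd1* and *Ank3* lost it in 10 to 12 of the 16 fits (up to 0.138, 0.149, 0.141, 0.154 and 0.188), so these calls lie at the threshold. The genes closest to it on the inside were *Ank3*, *Rsad2* and *Tstd1*, and on the outside *Ccnd1* (cyclin D1, log2 fold change -1.19, adjusted p = 0.0520) and *Bhlhe40*, which were named after their values were seen.

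Several other lists lay to one side without many calls. Of 15 circadian clock genes tested, 11 were lower and 7 passed the 2-fold threshold as lowered, with a median of -1.01, and *Ciart*, a repressor of the clock, was called. *Ciart* was at 1.30, 4.48, 1.96, 6.73 and 2.06 TPM in treated mice 1 to 5 and at 4.18, 14.5 and 35.5 TPM in DPBS-treated mice (log2 fold change -2.29, SE 0.46, adjusted p = 0.0211). Others that passed were *Bhlhe40* (-1.81, adjusted p = 0.0521), *Dbp* (-1.28), *Nr1d2* (-1.07), *Tef* (-1.01) and *Per3* (adjusted p = 0.377). Without the 3 shallowest mice the median of this list was -0.57 and 3 of 16 passed the threshold. After Control-GalNAc-ASO treatment *Ciart* had a log2 fold change of -1.58 from DPBS (adjusted p = 0.691).

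Of 15 female-biased liver genes tested, 14 were lower and 6 passed the 2-fold threshold, with a median of -1.38, and 0 were called by limma, where 9 had an unadjusted p under 0.05. *Cyp2c69*, a P450, was at 70.0 and 76.0 TPM in the 2 treated females and at 180 to 947 TPM in the 6 DPBS-treated females, and at 0.644 to 7.49 TPM in the males of both groups. *Sult2a1*, a steroid sulfotransferase, was at 0 and 0.980 TPM in treated females and at 8.65 to 177 TPM in DPBS-treated females. The values rest on 2 treated females, of which 1 is mouse 3, and without the 3 shallowest mice only 8 of these genes reached the TPM minimum and 0 passed, while 7 of the 8 were lower with a median of -1.17. Of 12 steroid metabolism genes 10 were lower (median -0.78), with *Cyp17a1* at -1.69 (adjusted p = 0.0859), and the median was -0.36 without the 3 shallowest mice. Of 13 p53 targets 12 were higher (median 0.66), 3 passed the 2-fold threshold (*Cdkn1a*, *Phlda3* at 1.87 and *Ccng1* at 1.44) and 0 were called (limma, 3 at an unadjusted p under 0.05). Of 11 male-biased liver genes tested, 6 were lower (median -0.05) and *Serpina1e* was the 1 called. *Cyp17a1*, *Cdkn1a* and *Serpina1e* stand in more than 1 list.

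Of 36 lists, 22 held no called gene (limma, adjusted p under 0.05). Of 41 tested P450 genes 32 were lower (median -0.31), with 11 at an unadjusted p under 0.05. Of 17 conjugating transferases 15 were lower (median -0.47), with 2 at that level. Without the 3 shallowest mice the medians of both lists were 0.00 and -0.02. Genes of mitosis and DNA replication were higher in 10 of 11 tested members (median 0.87, 2 at an unadjusted p under 0.05). Cytosolic ribosomal proteins (76 tested, median -0.17), oxidative phosphorylation genes (79 tested, median -0.21) and coagulation and complement genes (36 tested, median -0.23) had 4, 3 and 4 members at that level. Without the 3 shallowest mice the ribosomal median turned to 0.06 with 50 of 77 higher, and that of oxidative phosphorylation was -0.02, of coagulation and complement -0.08 and of mitosis and DNA replication 0.51. In other mice, given *Upf3b*-GalNAc-ASO or Control-GalNAc-ASO at 20 mg/kg, 68 of 76 ribosomal protein genes were higher with the former (median 0.38).

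**Figure D4:**
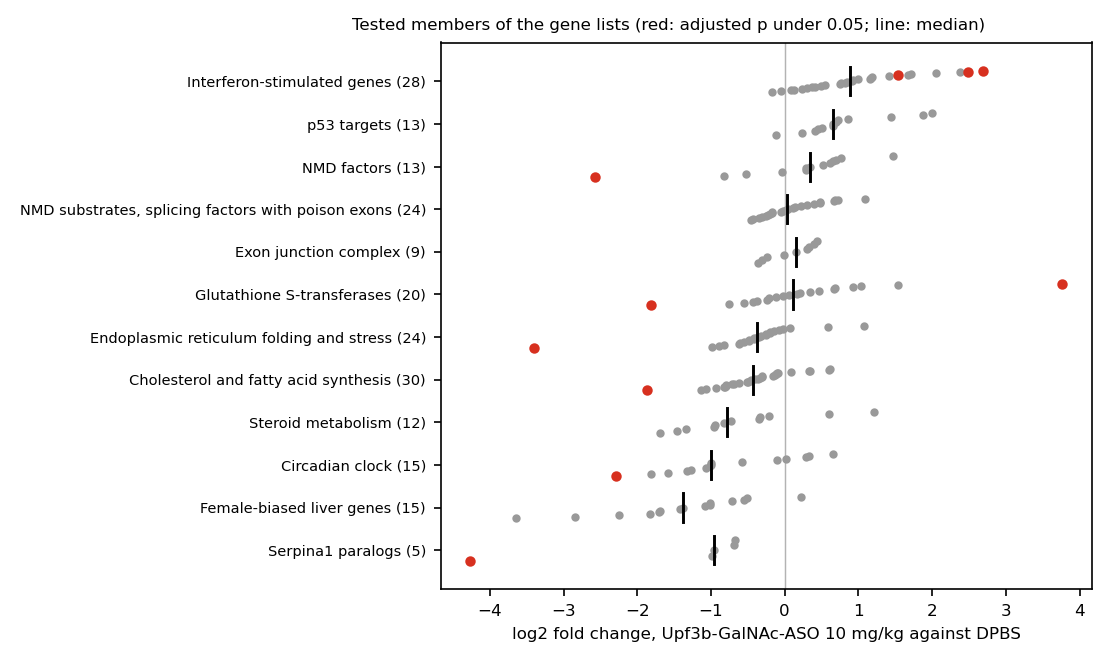
Log2 fold change of each tested member (points) of 12 gene lists after *Upf3b*-GalNAc-ASO treatment against DPBS, with the number tested in brackets, the median as a line and members with an adjusted p under 0.05 in red. Interferon-stimulated genes and p53 targets lie mostly right of 0, and circadian and female-biased genes mostly left of 0.

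Hepatocyte identity was checked by 12 markers such as *Alb* and *Asgr1*, all of which were tested. By limma 0 were called and 0 had an unadjusted p under 0.05. Their summed level was 25077 to 66294 TPM in treated mice, lowest in mouse 3, and 39234 to 77651 TPM in DPBS-treated mice, with a median log2 fold change of -0.24, or -0.11 without the 3 shallowest mice. The sums of 15 sinusoidal endothelial markers (1349 to 2690 TPM and 1022 to 2811 TPM) and of 12 stellate cell markers (199.8 to 302 TPM and 211 to 370 TPM) overlapped. Cholangiocyte markers summed to 21.8 to 27.4 TPM and 7.53 to 33.3 TPM, and neutrophil markers to 0.980 to 4.98 TPM and 1.48 to 11.3 TPM, with *Camp* and *Elane* at 0 in all 16 mice. Over all 8 marker lists no tested gene had an unadjusted p under 0.05 by limma, and neither had any of 11 tested genes of ASO uptake and RNase H, though no neutrophil marker reached the TPM minimum. The part of a lower summed hepatocyte level in the falls was not tested. The lowest log2 fold change among the 12 hepatocyte markers was -0.67.

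The called genes were then read in mice that share no animal with this comparison, 5 given *Upf3b*-GalNAc-ASO and 6 given Control-GalNAc-ASO, both at 20 mg/kg. In those mice 149 of 9376 genes were lowered (1.59%) and 87 raised (0.928%), 2.52% together. Of the 34 genes called at 10 mg/kg against DPBS, 32 were tested there, 31 had the same sign and 22 were called in the same direction. Of all 8695 genes tested in both, 54.4% had the same sign and 2.00% were called in the same direction. For lowered genes these counts were 23 and 18 of 24, and for raised genes 8 and 4 of 8. *Lipc* was again the largest fall of these, at -5.47 (adjusted p = 7.99e-06), with 0.680 ± 1.07 TPM (n = 5) against 72.1 ± 37.2 TPM (n = 6). *Rdh16* was at -2.97, *Dpyd* at -3.06 and *Maob* at -3.63, with adjusted p-values from 4.13e-05 to 0.000310. *Upf3b* was at -3.87 (adjusted p = 1.59e-05).

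Among the raised genes, *Gsta1* (3.53), *Zfas1* (2.14), *Adora1* (1.57) and *Isg15* (1.55) were called again in the 20 mg/kg mice, with adjusted p-values from 0.000357 to 0.0313. *Rsad2* was at 1.96 (adjusted p = 0.122) and *Ifi44* at 1.12 (adjusted p = 0.425). *Gm43302* and *Car1* were below the TPM minimum there. *Ciart* was the 1 gene of opposite sign, at 0.86 (adjusted p = 0.619), and *Usp2* was at -0.95 (adjusted p = 0.379). Whether the change of a gene differed between the doses was not tested, since the reference groups also differ.

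Of the 15 lowered genes over 300 kb, 14 were tested in the 20 mg/kg mice, all 14 were lower there and 10 were called lowered. Of the 96 genes of any length lowered at the 2-fold threshold at 10 mg/kg and tested there, 85 were lower (88.5%) and 34 were called lowered (35.4%). At the 2-fold threshold, 363 genes (3.87%) were lowered and 221 (2.36%) raised in those mice, 6.23% together. Of 184 genes over 300 kb there, 30 were lowered (16.3%) and 7 raised (3.80%), and their median log2 fold change was -0.56. *Cpq* was at -2.36 and *Bre* at -3.58, with adjusted p-values of 0.0347 and 0.00111. Of 28 interferon-stimulated genes 21 were higher, 2 were called and the median was 0.50. The median of the circadian list was -0.31, that of the female-biased list -1.42 with 12 of 14 lower, and that of the p53 targets 1.06, where 3 of 13 were called raised, led by *Phlda3* at 4.05 (adjusted p = 8.54e-05). Male-biased genes were also mostly lower there, with 1 of 11 higher, a median of -0.40 and 2 called lowered.

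**Figure D5:**
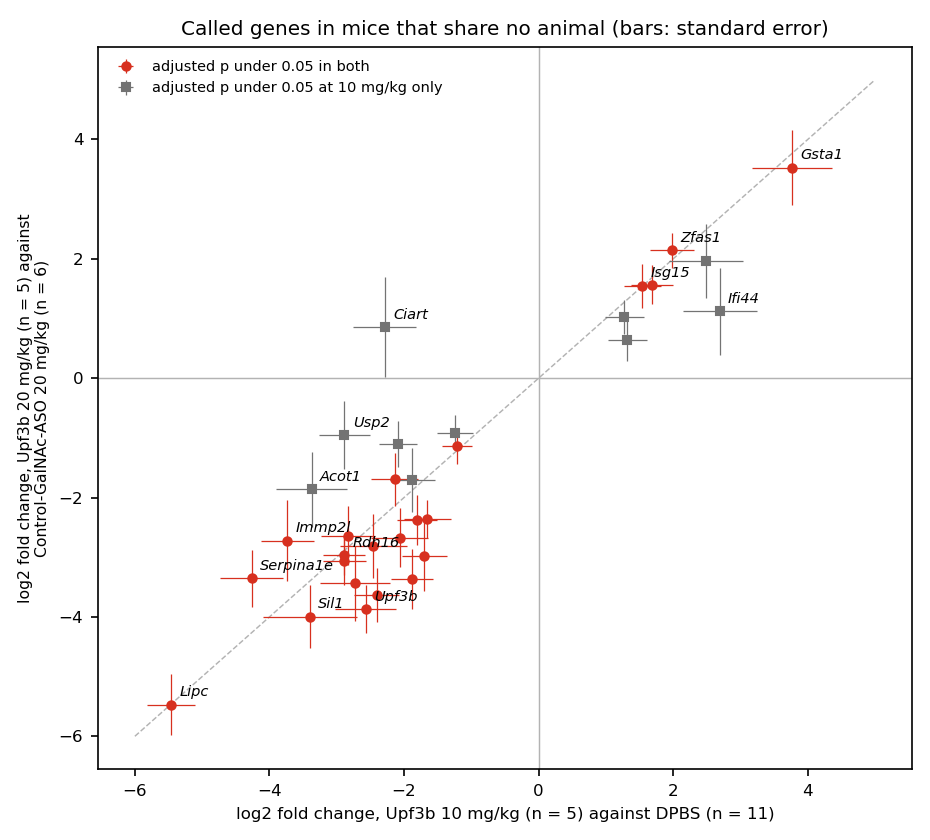
Log2 fold change with its standard error of 32 called genes at 10 mg/kg against DPBS (x axis) and at 20 mg/kg against Control-GalNAc-ASO in other mice (y axis), with the dashed line at equal values. The 22 genes called in both are red, and *Ciart* is the 1 point in a quadrant of opposite signs.

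Against the other available reference, the 4 mice given Control-GalNAc-ASO at 15 mg/kg, the treated mice gave *Lipc* a log2 fold change of -5.86, *Rdh16* of -3.08, *Maob* of -2.89, *Oat* of -2.53 and *Isg15* of 2.15, with adjusted p-values from 9.01e-05 to 0.00888. *Csad* (-1.88), *Usp2* (-2.51), *Zfas1* (2.16), *Immp2l* (-2.71) and *Gsta1* (2.33) had adjusted p-values from 0.0592 to 0.114 there, and *Upf3b* (-1.73) of 0.211. These mice differ in number and dose from DPBS, and the treated mice are the same, so the values are given side by side only. Between Control-GalNAc-ASO and DPBS, 0 of 8971 genes had an adjusted p under 0.05 by limma, with 644 at an unadjusted p under 0.05. *Immp2l* (-1.10) and *Ciart* (-1.58) had the lowest values of the 24 lowered genes there.

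All 34 called genes had the same sign in females alone (2 treated, 6 DPBS) and in males alone (3 treated, 5 DPBS). Females alone gave 19 lowered and 1 raised gene, and males alone 18 and 9. The test of a difference between the sexes called 1 of 9032 genes (0.0111%), *Hamp2*, a hepcidin paralog with higher levels in females, with 1098 genes at an unadjusted p under 0.05. *Hamp2* was at 0 and 1.63 TPM in treated females and at 140 to 388 TPM in DPBS-treated females, while it was at 0.875 to 3.34 TPM in treated males and at 0.189 to 18.7 TPM in DPBS-treated males. Treated females had almost none of it, and males had little in both groups. The interaction was 6.72 on the log2 scale (males minus females, adjusted p = 0.0190). The count rests on single mice. Leaving out 1 mouse at a time called between 0 and 1095 genes, and 1095 without treated mouse 1, where mouse 3 is the only treated female left.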

How the data were processed

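Hepatic RNA of 31 mice was sequenced as single libraries, and groups were taken from the sample labels. The authors quantified reads with Salmon against mouse cDNA and deposited 1 value in TPM (transcripts scaled to the same total in every mouse) for each gene symbol and mouse. The submitters' processing notes name Salmon 0.7.2, bcl2fastq 2.17.1.14 and GRCm38.p4. The step from transcripts to genes is not given in the sources used here. Low values are multiples of 1 read regardless of transcript length, so TPM here are scaled reads, not divided by length, and levels are not compared between genes. Between 66.9% and 81.3% of values were whole multiples of 1 read within 0.02 reads, too few for a count test. Of 31198 symbols, 26 had been turned into dates and were left out.

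Genes were tested if their median was 5 TPM or more in either group, on log2(TPM + 1) with limma 3.58.1 in R 4.3.3 (lmFit with sex as a covariate, eBayes with trend and robust), with Benjamini-Hochberg adjustment, and a gene was called at an adjusted p under 0.05. A second count took genes changed 2-fold or more with an unadjusted p of at most 0.01. *Upf3b* alone was tested by exact permutation with numpy 2.4.6 in Python 3.11.15. The fit was tested on simulated data. Named genes were *Upf3b*, *Gapdh*, *F9* and tested NMD factors, the 10 largest rises and falls, called list members and genes called for sex. All other names were chosen after their values were seen, and a few genes that meet the rule are not reported here. The members, the gene lists and the tests were chosen with earlier results of these data known. Alternatives were other pseudocounts, filters, scalings and limma settings, a block by replicate number, each sex alone, and leaving out each mouse. Same-numbered mice of the groups differed in sex for 4 of 5 numbers, and their deviations from the group means correlated at -0.14 to 0.25, so the numbers were not taken as pairs. Gene lengths and transcripts were from GENCODE M21 and promoters from RefSeq.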

Additional observations from a re-analysis of the deposited data

Results flagged for a closer look

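With 53 quantities examined in the 5 treated mice, 8 had 1 mouse far from the other 4. The rule flags about 1 in 20 by chance if values are independent and normally distributed. TPM of genes in the same mice need not be, so the count of 8 is not read as an excess. Treated mouse 3 was the mouse apart for *Upf2* (highest, 681 TPM), *Upf3a* (highest, 61.7 TPM), *Ifi44* (highest, 103 TPM) and the median correlation with its own group (lowest, 0.677), and it was also the mouse with the fewest reads. *Rsad2* was highest in treated mouse 2 (197 TPM) and *Adk* in treated mouse 4 (156 TPM). *Thrsp* was highest in treated mouse 5 (402 TPM) and *Ric8b* in treated mouse 4 (3.69 TPM). The treatment-by-sex term of *Hamp2* was 6.72 on the log2 scale by limma and rests on 2 treated females, and it was no longer called without the 3 shallowest mice. The causes of these values were not tested.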

How the results depend on the processing

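All 34 called genes kept their sign in every setting that gave them a value (1016 values), and 200 of these values were no longer below an adjusted p of 0.05. The number of called genes ran from 24 to 39 when 1 mouse was left out, with 4 to 11 raised and 18 to 29 lowered, and the 2-fold counts ran from 55 to 94 raised and from 71 (without treated mouse 3) to 154 (without treated mouse 1) lowered. Raised genes were fewest without treated mouse 5 (4) or 4 (5), and 6 were raised without DPBS-treated mouse 3, 8 or 11 or treated mouse 1 or 2. A pseudocount of 0.1 gave 5 raised genes and 41 raised 2-fold. A minimum of 20 TPM gave 36 raised and 64 lowered 2-fold, with 100% of called genes of the same sign in the 20 mg/kg mice. Array weights gave 62 called genes (22 raised, 40 lowered), and quantile normalization gave 37 lowered. Females alone gave 20 called genes (1 raised), 227 lowered 2-fold and a log2 fold change of -1.92 for *Upf3b*. The share of called genes with the same sign in the 20 mg/kg mice ran from 95.8% to 100% over the mice left out.

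The pairing of mice by replicate number, as a block over the 10 mice with shared numbers, gave 9 called genes (1 raised, 8 lowered) and -2.41 for *Upf3b* (adjusted p = 0.201). The numbers mark no shared animal or batch in the labels, and not every mouse correlated best with its own number. The same 10 mice without the block, a setting chosen after seeing the data, gave 14 called genes (2 raised, 12 lowered) and -2.41 for *Upf3b* (adjusted p = 0.240). The block changed the direction of *Gapdh* (0.087) and *Smg5* (-0.060), and so did the 10 mice without it.

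The count of genes that differed between the sexes was 0 with a pseudocount of 0.1, with array weights and without the 3 shallowest mice (chosen after seeing the data), 2 without trend and robust variance, and 0 to 1095 over the mice left out. It was 0 without DPBS-treated mouse 5, 7 or 10 or treated mouse 2, 3 or 5. Genes that were not called and changed sign included *Gapdh* (0.062 with array weights, 0.10 without the 3 shallowest mice, and -0.30 to 0.10 over the mice left out), *Upf3a* (-0.12 with array weights, -0.23 in males, -0.33 without the 3 shallowest mice, and -0.26 to 0.87 over the mice left out) and *Gspt1* (-0.15, -0.089, -0.30, and -0.19 to 0.55 in the same order). *Smg6* was 0.35 in females. *Smg5* was -0.21 to 0.77 over the mice left out. The causes of these shifts were not tested. A count test on recovered reads was not run, since too few values were whole. Depth limits the results for genes near 3 reads per mouse, such as *Lipc* and *Immp2l* in treated mice.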
